A study of Mus musculus with 4 samples.

Results

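The 41 genes described here act in G2 and mitosis and in building the spindle. They were chosen by symbol for these known roles, but with earlier results of these data known. All 41 were found among the 22402 named genes of the deposited tables, in 56 transcript rows, and 9 of them had several rows. Each gene's level is the sum of its rows in FPKM, a fragment count divided by transcript length and library size. The cells were mouse embryonic stem (ES) cells of the strain C57BL/6X129Sv mix, below 20 passages, grown in serum with leukemia inhibitory factor. There were 4 groups with 1 library each. p53+/+ untreated, p53+/+ Adriamycin, p53-/- untreated and p53-/- Adriamycin are the names used for them, and Adriamycin, a drug that traps topoisomerase II on DNA, was given at 0.5 uM for 8 h. Since each group is 1 library, no spread between replicates is known and no test was run.

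Entry into mitosis is driven by the kinase Cdk1 bound to A- and B-type cyclins, switched on by Cdc25 phosphatases and held back by Wee1. Aurora kinases, kinesins and kinetochore proteins then build the spindle, and the spindle checkpoint delays the anaphase-promoting complex until every chromosome is attached. Many of these genes are transcribed mainly in G2 and mitosis, and in mammalian cells a promoter element named the cell cycle genes homology region (CHR), often paired with CCAAT boxes, is known for this timing. DNA damage is known to hold cells in G2, and p53 with its target p21 is known to lower many G2/M transcripts. ES cells have a short G1 phase, so that a large share of them is in S, G2 or mitosis.

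The libraries held 3.34 to 4.32 gigabases aligned to transcripts, and 11422 to 12291 genes reached 1 FPKM in a library. A difference is that of log2(FPKM + 1) between libraries, a scale that makes changes of low genes look smaller, and was computed for the 13013 genes with at least 1 FPKM in at least 1 library. All 41 genes passed that filter. A gene is called lower or higher at a difference of at least 1 on this scale. Trp53, the targeted gene, stood at 216 FPKM without and 165 FPKM with the drug in p53+/+ cells and at 78.6 and 76.5 FPKM in p53-/- cells, so it was lower but not absent, and the labels do not say how the gene was altered. In what follows, a pair of levels gives the untreated library first and the treated one second. Cdkn1a, which encodes p21, stood at 26.2 and 85.8 FPKM in p53+/+ cells and at 18.0 and 24.6 FPKM in p53-/- cells. Mdm2, another p53 target, stood at 32.6 and 257 FPKM against 17.7 and 19.9 FPKM. The ES cell markers Pou5f1 (658 to 948 FPKM) and Sox2 (97.3 to 142 FPKM) were high in all 4 libraries. All 10 ES cell markers listed further on were lower with the drug in p53+/+ cells, and Nanog (-1.55) and Zfp42 (-1.76) were called lower. In p53-/- cells the differences of Nanog and Zfp42 were -0.22 and -0.90. The median level of the 41 genes was 54.1 and 33.6 FPKM in p53+/+ and 42.0 and 30.1 FPKM in p53-/- cells, against 7.84 to 9.22 FPKM over all genes past the filter.

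Promoters are shown first because the genes share letters there that their choice did not use. RefSeq's promoter table (GRCm38.p6, 250 bases before to 50 after each start) held 34 of the 41 genes. It was searched on both strands for CHR letters (TTTGAA or TTCGAA), for CCAAT, which reads as ATTGG on the other strand, and for E2F site letters (TTTCCCGC, TTTGGCGC, TTTGCGCG or TTTCGCGC). CHR letters were present for 26 of the 34 genes, or 76.5%, against 21.7% of 27025 genes in the table and 16.2% of the 10380 genes past the expression filter. CCAAT was present for 26 genes, or 76.5%, against 41.1% and 43.7%. Both were present for 22 genes, or 64.7%, against 8.61% and 7.02%, and at least 2 CCAAT copies for 18 genes, or 52.9%, against 13.3% and 17.1%. E2F letters were found for 1 gene, Cdk1, or 2.94%, against 2.45% and 4.74%. Other mitotic genes, a list described further on, had them often too. Of the 46 of them in the table, 58.7% held CHR letters, 65.2% CCAAT, 43.5% both, 41.3% at least 2 CCAAT copies and 13.0% E2F letters. A match is only a match of letters and shows no binding.

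Printed here, 5′ to 3′ on the coding strand, are the promoters of the 3 genes with the lowest response to Adriamycin in p53-/- cells (Cdc20, Aurka and Hmmr) and of the 2 with the highest (Cdc25b and Mad2l1). Capitals mark the CHR and CCAAT letters read on either strand, and positions are GRCm38.p6.
Cdc20 (chr4:118437294-118437593, minus strand): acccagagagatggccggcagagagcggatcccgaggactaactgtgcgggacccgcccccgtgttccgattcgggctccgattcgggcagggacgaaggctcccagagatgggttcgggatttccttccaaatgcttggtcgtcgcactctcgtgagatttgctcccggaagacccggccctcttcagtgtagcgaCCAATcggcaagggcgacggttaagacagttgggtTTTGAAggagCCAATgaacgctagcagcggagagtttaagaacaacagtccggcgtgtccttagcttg
Aurka (chr2:172370521-172370820, minus strand): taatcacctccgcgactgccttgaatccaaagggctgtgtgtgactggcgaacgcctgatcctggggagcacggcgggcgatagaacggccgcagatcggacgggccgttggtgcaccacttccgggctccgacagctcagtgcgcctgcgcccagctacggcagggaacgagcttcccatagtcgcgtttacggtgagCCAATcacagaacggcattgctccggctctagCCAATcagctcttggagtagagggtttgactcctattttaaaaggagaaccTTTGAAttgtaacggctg
Hmmr (chr11:40733388-40733687, minus strand): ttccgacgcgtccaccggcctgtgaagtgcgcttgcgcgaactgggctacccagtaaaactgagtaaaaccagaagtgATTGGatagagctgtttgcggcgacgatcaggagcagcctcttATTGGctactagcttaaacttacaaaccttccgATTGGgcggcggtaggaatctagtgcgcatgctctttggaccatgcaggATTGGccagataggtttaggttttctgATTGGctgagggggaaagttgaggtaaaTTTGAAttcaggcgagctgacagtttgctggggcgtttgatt
Cdc25b (chr2:131186698-131186997, plus strand): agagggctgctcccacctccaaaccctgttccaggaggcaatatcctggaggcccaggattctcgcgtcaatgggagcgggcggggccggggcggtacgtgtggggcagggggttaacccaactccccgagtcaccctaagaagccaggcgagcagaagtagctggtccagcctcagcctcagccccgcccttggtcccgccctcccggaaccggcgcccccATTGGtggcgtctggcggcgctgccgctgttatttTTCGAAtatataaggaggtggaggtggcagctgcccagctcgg
Mad2l1 (chr6:66534971-66535270, plus strand): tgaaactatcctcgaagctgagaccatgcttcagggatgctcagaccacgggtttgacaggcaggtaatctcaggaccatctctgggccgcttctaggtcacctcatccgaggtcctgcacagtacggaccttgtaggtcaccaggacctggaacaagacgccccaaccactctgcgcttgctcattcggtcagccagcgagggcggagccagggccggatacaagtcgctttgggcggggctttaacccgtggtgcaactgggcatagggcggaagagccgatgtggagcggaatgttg

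Cdc20, Aurka and Hmmr each hold TTTGAA once, beginning 18 bases before the start in Cdc20 and at base 33 and base 9 after it in Aurka and Hmmr. Cdc20 and Aurka hold CCAAT 2 times each and Hmmr 5 times, read as ATTGG. Cdc25b holds TTCGAA at base 8 after the start and ATTGG once, and Mad2l1 holds none of the letters searched. The p53-/- responses of Cdc25b (0.11) and Mad2l1 (0.09) are close to 0 and to that of Spc25 (0.09). The promoter of Spc25 holds CHR letters 1 time and CCAAT letters 2 times. With only the row of the highest level per gene, Cdc25b had -0.01 and Bub1 0.28. In the printed windows no motif overlaps another. Genes with and without CHR letters overlapped in their p53+/+ responses, which ran from -1.30 to 0.55 with them and from -1.02 to 0.09 without. Their p53-/- responses overlapped too, from -1.12 to 0.11 with CHR letters and from -0.87 to 0.09 without. The median p53+/+ response was -0.64 for the 26 genes with CHR letters and -0.56 for the 8 without, and the median p53-/- response was -0.40 and -0.30.

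Adriamycin was accompanied by lower levels of most of these genes in p53+/+ cells. Their FPKM summed to 2663 without and 1803 with the drug, 0.677 of the untreated level. The median difference was -0.60, against 0.05 over all genes tested, and 38 of 41 genes stood below 0. Called lower were 7 of 41, namely Kif23, Ect2, Aurka, Prc1, Kif20b, Fzr1 and Cenpf, and 0 were called higher. Over all genes 2.78% were called lower and 11.4% higher. Of the genes called in either direction 80.4% were higher, or 65.3% after quantile normalization. At the smaller step of 1.5-fold 21 of 41 were lower, against 11.3% of all genes. In bulk RNA, fewer cells in G2 or mitosis and less RNA per such cell cannot be told apart.

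In p53-/- cells the genes were lower too, with sums of 2132 and 1591 FPKM, or 0.746 of the untreated level. The median difference was -0.38, against 0.07 over all genes, and 35 of 41 genes stood below 0. Called lower were 3 genes, Cdc20, Aurka and Hmmr, and 0 were higher, in a comparison where only 0.469% of all genes were called lower and 0.377% higher. By at least 1.5-fold 9 of 41 were lower, against 1.49% of all genes. Aurka is the 1 gene called in both genotypes, and 33 genes stood below 0 in both. Of all 13013 genes 5979 stood below 0 in p53+/+ and 4607 in p53-/- cells, and the overlap between the genotypes was not counted over all genes.

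Each deposited FPKM comes with confidence bounds, which cannot cover variation between cultures. They hold the FPKM in every library for 24 of the 41 genes, while the other 17 have an FPKM above their own upper bound in at least 1 library, Aurka, Kif23, Prc1 and Fzr1 among them. Over the 24 genes, bounds of the treated library lay wholly below those of the untreated one for 21 in p53+/+ cells and for 15 in p53-/- cells, and wholly above for 1 and 0. Bounds lay wholly below for 24.2% and 5.11% of the 10623 genes with such bounds. These shares were not matched for level. The 41 genes had a higher median level than all genes, so the width of bounds may differ between the sets. For genes with several rows, lower and upper bounds were each summed over the rows, which gives no true bounds of the sum. Coverage was deep, with a median of 134 to 291 aligned bases per base over the genes in a library.

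**Figure D1:**
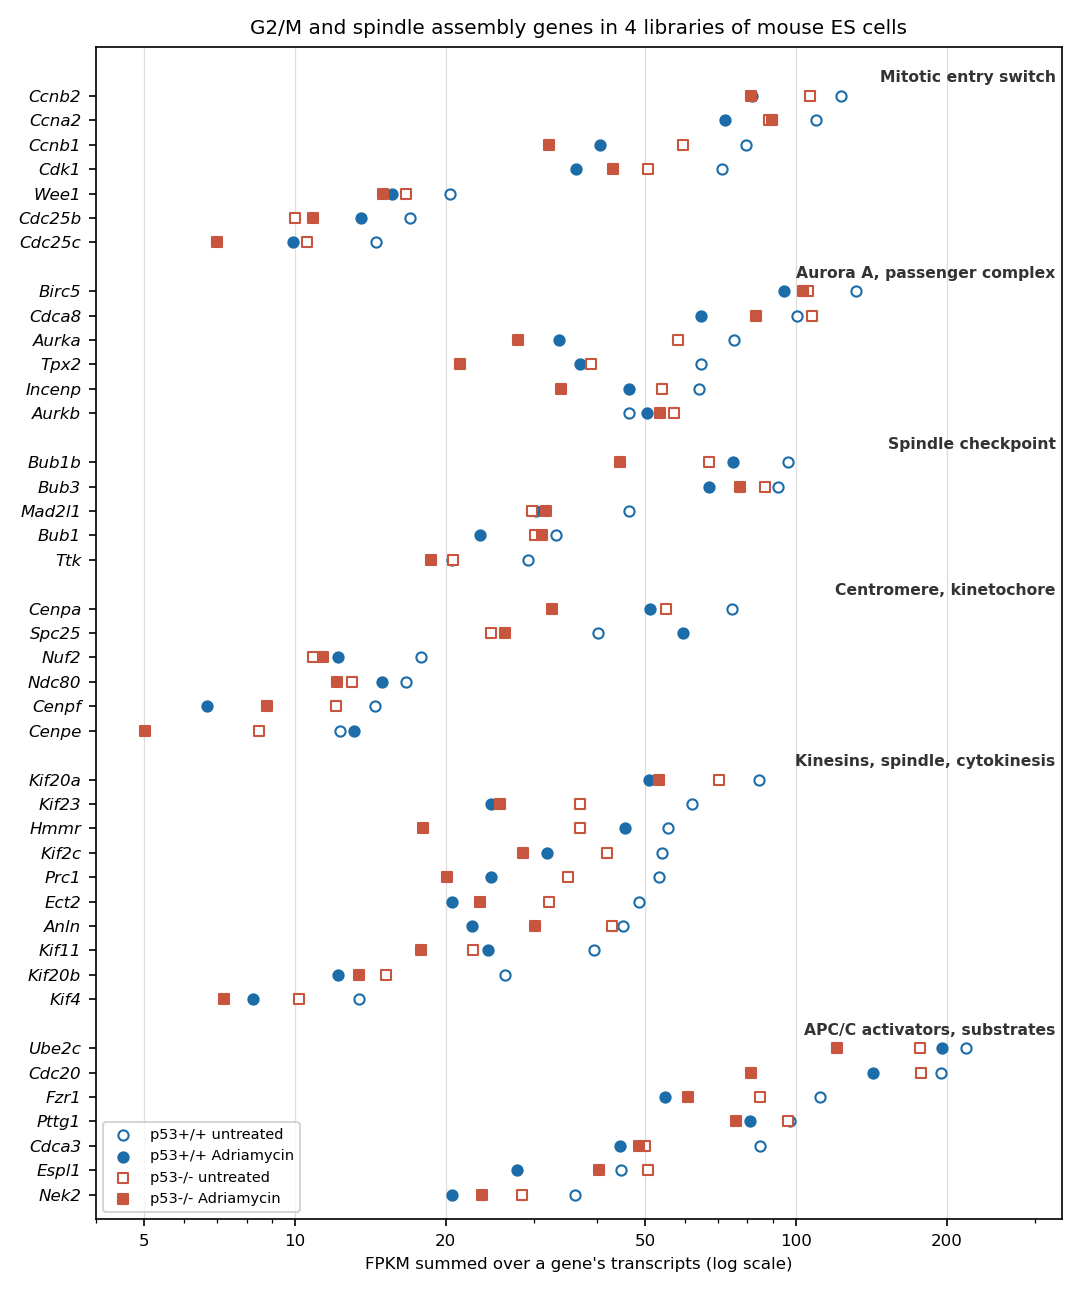
FPKM of the 41 genes on a log axis in the 4 libraries, by role and, within a role, by the untreated p53+/+ level. Open symbols are untreated and filled ones treated libraries, circles p53+/+ and squares p53-/-. Open blue circles lie farthest right for most genes, Ube2c is highest in 3 of the 4 libraries, and Aurka is low in both treated libraries.

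Among the genes of the mitotic entry switch, all 7 stood below 0 in p53+/+ cells (median -0.58) and 5 of 7 in p53-/- cells (median -0.23). None was called, and over all genes only 2.78% and 0.469% were called lower. Cdk1 (chromosome 10, 68799383 to 68815660 in mm9), the mitotic kinase itself, stood at 71.4 and 36.3 FPKM in p53+/+ cells, and at 50.8 and 43.1 FPKM in p53-/- cells. Its difference was -0.95 in p53+/+ and -0.23 in p53-/- cells. The cyclin partners differed from each other. Ccnb1, cyclin B1 (chromosome 13, 101548694 to 101556441), was low in both treated libraries, at 79.5 and 40.6 FPKM in p53+/+ cells and 59.5 and 32.2 FPKM in p53-/- cells. Its differences of -0.95 and -0.87 were just short of the call. Ccna2, cyclin A2, which also acts in S phase, stood at 109.9 and 72.4 FPKM in p53+/+ cells (bounds 107 to 114 and 70.2 to 75.6) but at 88.4 and 89.6 FPKM in p53-/- cells (85.6 to 92.4 and 87.2 to 93.5). Ccnb2, cyclin B2, stood at 123 and 81.8 FPKM against 107 and 81.5 FPKM.

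The regulators of Cdk1 were expressed at lower levels than the kinase. Cdc25c, an activating phosphatase, stood at 14.5 and 9.89 FPKM in p53+/+ cells and at 10.6 and 6.97 FPKM in p53-/- cells, with nearly equal differences of -0.51 and -0.54. Cdc25b, a phosphatase that starts the activation, stood at 16.9 and 13.6 FPKM against 9.99 and 10.8 FPKM. Its rows differed in p53+/+ cells, where NM_023117 stood at 7.66 and 3.85 FPKM and NM_001111075 at 9.27 and 9.71 FPKM. In p53-/- cells NM_023117 stood at 3.54 and 4.44 FPKM and NM_001111075 at 6.45 and 6.41 FPKM, with bounds that overlap for each row. Wee1, the inhibitory kinase, stood at 20.4 and 15.6 FPKM against 16.6 and 15.0 FPKM.

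Aurora A and the chromosomal passenger complex held the 1 gene that was called in both genotypes. Aurka (chromosome 2, 172181696 to 172196006), the centrosome and spindle kinase Aurora A, fell from 75.4 to 33.6 FPKM with p53 and from 58.3 to 27.9 FPKM without it. These are differences of -1.14 and -1.04, and both treated libraries lie below both untreated ones. In all 4 libraries the level of Aurka lies above its own upper bound. Tpx2, which activates Aurora A on the spindle, stood at 64.8 and 37.1 FPKM and at 38.9 and 21.4 FPKM, with differences of -0.79 and -0.83. These are sums of 5 rows that differed from each other. The row with the highest level, NM_001141978, stood at 29.7 and 19.9 FPKM (-0.56) and at 22.8 and 10.4 FPKM (-1.06), which passes the call in p53-/- cells. NM_001141975 had the reverse order, with 15.7 and 5.52 FPKM (-1.36) and 5.16 and 4.97 FPKM (-0.05). Aurkb, the kinase of the passenger complex, did not follow Aurka and stood at 46.5 and 50.5 FPKM in p53+/+ and 57.2 and 53.5 FPKM in p53-/- cells.

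The partners of Aurora B in the passenger complex differed from each other. Birc5, survivin, stood at 132 and 94.5 FPKM in p53+/+ cells and at 106 and 103 FPKM in p53-/- cells, a difference of -0.48 against -0.03 (0.06 after quantile normalization). Cdca8, borealin, stood at 101 and 64.7 FPKM and at 107 and 83.3 FPKM. Incenp, the scaffold, was lower in both treated libraries, at 64.1 and 46.4 FPKM and at 53.9 and 33.9 FPKM. The 4 passenger complex genes thus spanned -0.63 to 0.12 in p53+/+ cells and -0.65 to -0.03 in p53-/- cells.

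Spindle checkpoint genes, 5 in all, had medians of -0.48 and -0.14. They were called in neither genotype, and over all genes only 2.78% and 0.469% were called lower. Mad2l1, Mad2, which binds Cdc20 to delay anaphase, stood at 46.5 and 30.3 FPKM in p53+/+ cells and at 29.8 and 31.8 FPKM in p53-/- cells. Its untreated p53+/+ level was the high value, and the other 3 libraries lay within 29.8 to 31.8 FPKM. Bub1, a kinase at kinetochores, showed 33.1 and 23.4 FPKM against 30.1 and 31.2 FPKM. Ttk, the kinase Mps1 that starts the checkpoint signal, showed 29.2 and 20.6 FPKM against 20.7 and 18.7 FPKM. Bub1b, the BubR1 subunit of the checkpoint complex, was the exception with the larger difference in p53-/- cells, at 67.0 and 44.5 FPKM (-0.58) against 96.3 and 75.0 FPKM (-0.36) in p53+/+ cells. Bub3, its binding partner, stood at 92.0 and 67.2 FPKM and at 86.9 and 77.2 FPKM.

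Centromere and kinetochore genes had medians of -0.33 and -0.26, with 4 of 6 below 0 in each genotype. Nuf2 stood below 0 only in p53+/+ cells and Cenpe only in p53-/- cells. Cenpf, a large farnesylated kinetochore protein, fell from 14.5 to 6.67 FPKM in p53+/+ cells (bounds 13.9 to 15.0 and 6.32 to 7.03), a difference of -1.01. In p53-/- cells it stood at 12.1 and 8.78 FPKM. Cenpe (chromosome 3, 134875527 to 134936504), the kinetochore kinesin that aligns chromosomes, had the other order of genotypes. It stood at 12.3 and 13.1 FPKM in p53+/+ cells (bounds 11.6 to 12.9 and 12.4 to 13.8, which overlap) and at 8.47 and 5.01 FPKM in p53-/- cells (7.91 to 8.99 and 4.61 to 5.39). Spc25 (chromosome 2, 69031952 to 69044247), a subunit of the Ndc80 complex that grips microtubules, had the highest p53+/+ response of the 41, with 40.3 and 59.6 FPKM (0.55) there and 24.6 and 26.2 FPKM in p53-/- cells.

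The other members of the Ndc80 complex did not share the pattern of Spc25. Ndc80 itself stood at 16.6 and 14.9 FPKM in p53+/+ and 13.0 and 12.1 FPKM in p53-/- cells. Nuf2 stood at 17.8 and 12.2 FPKM and at 10.8 and 11.4 FPKM. Most of Spc25 came from the row NM_001199124, at 38.7 and 52.99 FPKM in p53+/+ cells, while NM_001199123 stood at 1.63 and 6.61 FPKM. Cenpa, the histone H3 variant that marks centromeres, was low in both treated libraries relative to its genotype, at 74.6 and 51.1 FPKM and at 55.1 and 32.6 FPKM.

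Kinesins and the spindle and cytokinesis genes had the lowest medians of the 6 groups in p53+/+ cells (-0.86) and the second lowest in p53-/- cells (-0.47). All 10 stood below 0 in both genotypes. In p53+/+ cells 9 of 10 were lower by at least 1.5-fold, Hmmr being the exception, against 11.3% of all genes. In p53-/- cells 2 of 10 were, Hmmr and Prc1, against 1.49% of all genes. Kif23 (chromosome 9, 61765085 to 61794606), the motor of the centralspindlin complex of cytokinesis, had the lowest p53+/+ response of the 41. It fell from 62.2 to 24.6 FPKM (-1.30) there and stood at 37.0 and 25.7 FPKM (-0.51) without p53. Both treated libraries ended at about the same level from different untreated levels.

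Prc1 (chromosome 7, 87439351 to 87461145), which bundles midzone microtubules, was low in both treated libraries, at 53.2 and 24.6 FPKM (-1.08) and at 35.0 and 20.1 FPKM (-0.77). Kif20b (chromosome 19, 34996848 to 35050221), a kinesin of late cytokinesis, was high in the untreated p53+/+ library alone. It stood at 26.3 and 12.2 FPKM in p53+/+ cells (bounds 24.7 to 26.9 and 11.3 to 12.8) and at 15.2 and 13.4 FPKM in p53-/- cells (14.1 to 16.0 and 12.4 to 14.1). Anln, anillin of the cleavage furrow, stood at 45.3 and 22.6 FPKM (-0.97) and at 42.9 and 30.1 FPKM (-0.50).

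Ect2 (chromosome 3, 26996144 to 27052800), the exchange factor that activates RhoA at the cleavage site, summed to 48.6 and 20.6 FPKM in p53+/+ cells (-1.20) and to 32.2 and 23.4 FPKM in p53-/- cells (-0.44). Its rows behaved unlike each other. NM_007900 stood at 27.5 and 9.48 FPKM in p53+/+ cells but at 14.5 and 14.0 FPKM in p53-/- cells, with bounds that overlap there. NM_001177626 was lower in both, at 21.1 and 11.1 FPKM and at 17.7 and 9.36 FPKM. The response difference was therefore -0.76 for the sum and -1.40 for NM_007900 alone, and how Cufflinks shared reads between these rows was not tested.

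Hmmr (chromosome 11, 40514890 to 40546939), a spindle protein that also binds hyaluronan, had the reverse order of genotypes. It stood at 55.6 and 45.7 FPKM in p53+/+ cells (bounds 51.7 to 55.7 and 42.5 to 45.9) and at 37.1 and 18.0 FPKM in p53-/- cells (34.3 to 38.0 and 16.3 to 18.7). The differences were -0.28 and -1.005, the second on the edge of the call. Kif11, the bipolar motor Eg5, stood at 39.6 and 24.2 FPKM and at 22.7 and 17.8 FPKM. Kif2c, a microtubule depolymerase, Kif4, a chromosome arm motor, and Kif20a, a motor that carries the passenger complex to the midzone, had differences of -0.74, -0.64 and -0.72 in p53+/+ cells and of -0.54, -0.44 and -0.39 in p53-/- cells.

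The activators, partners and substrates of the anaphase-promoting complex included the genes at the highest levels. Cdc20 (chromosome 4, 118105506 to 118109948), which activates the complex at anaphase and is the target of the checkpoint, had the lowest p53-/- response of the 41, falling from 178 to 81.4 FPKM (bounds 173 to 185 and 77.9 to 85.7), a difference of -1.12. In p53+/+ cells it stood at 195 and 142 FPKM (192 to 203 and 139 to 148), a difference of -0.45. Fzr1, which encodes Cdh1, the activator used in late mitosis and G1, had the opposite order. It fell from 112 to 54.8 FPKM with p53 (-1.02) and stood at 84.8 and 60.8 FPKM without it (-0.47).

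Ube2c, the ubiquitin-conjugating enzyme of the complex, stood at 219 and 195 FPKM in p53+/+ cells and at 177 and 121 FPKM in p53-/- cells, each value above its own upper bound. It was the highest of the 41 in 3 libraries, and Cdc20 was in untreated p53-/- cells. Its differences were -0.16 (0.03 after quantile normalization) and -0.55, so it resembled Cdc20 in order. Cdca3 (chromosome 6, 124780194 to 124783719), known from frog egg extracts as a trigger of mitotic entry, had 84.8 and 44.6 FPKM in p53+/+ cells (-0.91) and 50.02 and 48.7 FPKM in p53-/- cells (-0.04, or 0.00 after quantile normalization). As with Kif20b and Mad2l1, the untreated p53+/+ library was the high one. Nek2, a kinase that splits centrosomes, stood at 36.1 and 20.6 FPKM and at 28.4 and 23.6 FPKM. Espl1, separase, which cleaves cohesin, stood at 44.7 and 27.8 FPKM and at 50.7 and 40.4 FPKM. Pttg1, securin, which inhibits separase, had similar small differences in both, at 97.4 and 81.1 FPKM and at 96.6 and 75.9 FPKM.

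**Figure D2:**
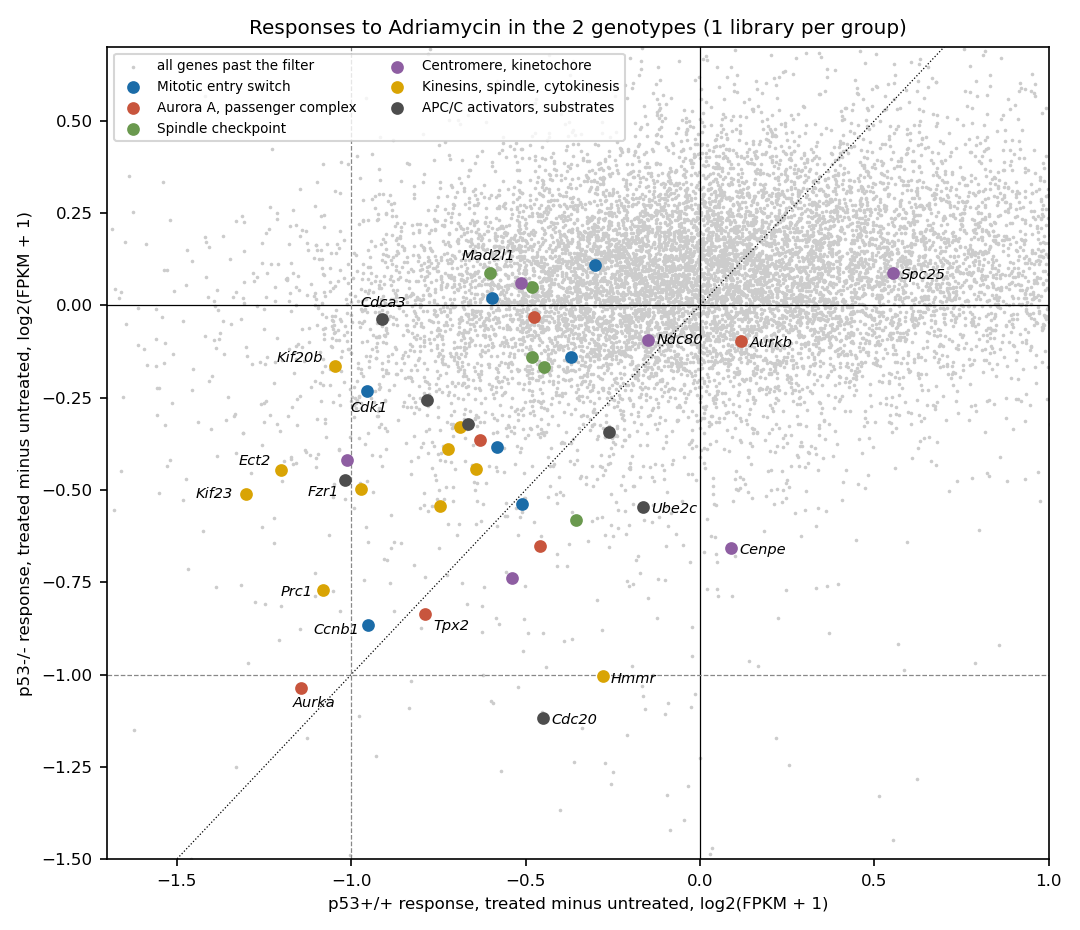
Response to Adriamycin in p53+/+ cells (horizontal) against that in p53-/- cells (vertical), both as differences of log2(FPKM + 1), for the 41 genes by role over all genes past the filter in grey (genes beyond the axes are not drawn). Dashed lines mark -1 and the dotted line equal responses. Most members lie below 0 on both axes, Aurka is past -1 on both, and Cdc20 and Hmmr lie below the dotted line.

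The genotypes' responses were then set against each other. They share no library. The p53+/+ response minus the p53-/- response had a median of -0.28 over the 41 genes, against -0.01 over all genes, with 29 below 0 and 12 above. Called were 0 of 41 in either direction, while 3.29% of all genes were called lower and 10.4% higher (76.0% of those called were higher, or 65.4% after quantile normalization). At the 1.5-fold step 8 genes were lower, against 13.8% of all genes, and 3 were higher, against 19.9%. The first count is a little above the background share and the second below it. Across the 41 genes, which share libraries and are not independent, Pearson's r between the responses was 0.27 and Spearman's rho 0.24. Across all 13013 genes they were 0.15 and 0.19.

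The 8 genes with the stronger decrease in p53+/+ cells were Kif20b (-0.88), Cdca3 (-0.88), Kif23 (-0.79), Ect2 (-0.76), Cdk1 (-0.72), Mad2l1 (-0.69), Ccna2 (-0.61) and Cenpf (-0.59). The 3 with the stronger decrease in p53-/- cells were Cenpe (0.75), Hmmr (0.73) and Cdc20 (0.67). Spc25 (0.47) came next, with a higher level after treatment in p53+/+ cells rather than a lower one in p53-/- cells. Nearly equal responses were seen for Cdc25c (0.03), Tpx2 (0.05, or 0.51 for its main row), Ndc80 (-0.05), Pttg1 (0.08), Ccnb1 (-0.09) and Aurka (-0.10). At the 1.5-fold step 4 genes were lower in both genotypes, 17 in p53+/+ cells alone, 5 in p53-/- cells alone and 15 in neither. With 1 library per group these counts are descriptions, and the difference between the genotypes was not tested for any gene.

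**Figure D3:**
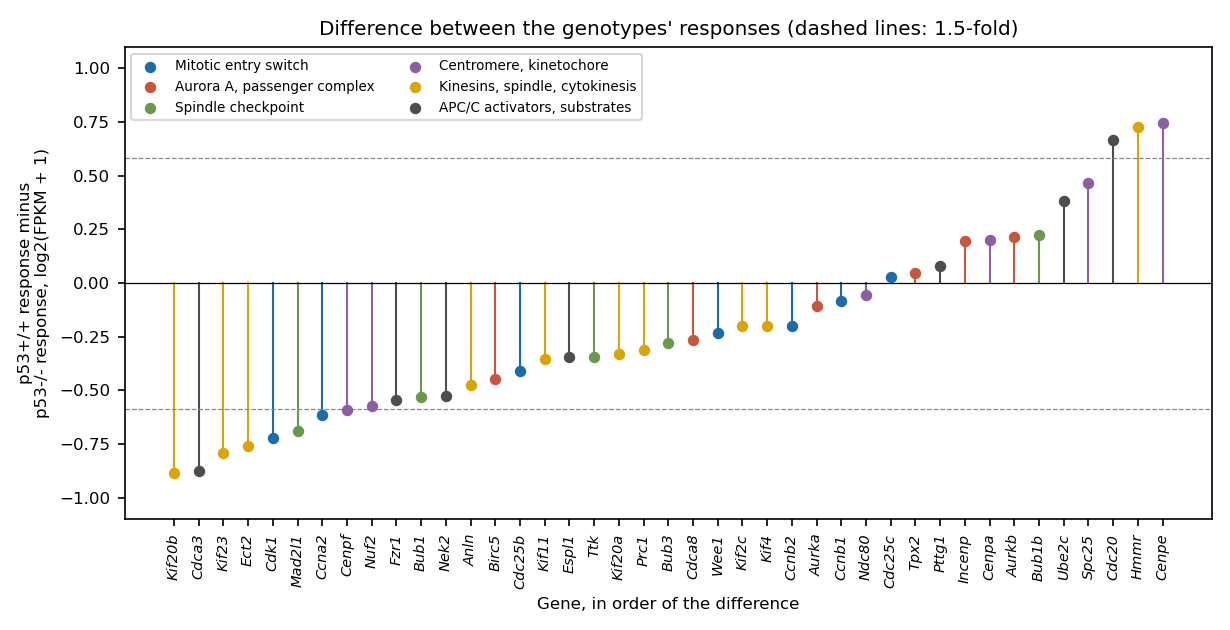
Difference between the p53+/+ and the p53-/- response on the log2(FPKM + 1) scale for each of the 41 genes, in rising order and coloured by role. Dashed lines mark 1.5-fold in either direction, beyond which 8 genes lie below and 3 above.

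Before treatment the levels of most of the 41 genes were below those of p53+/+ cells in the p53-/- library. The median of p53-/- minus p53+/+ was -0.37, against -0.05 over all genes, and 38 of 41 genes stood below 0, the exceptions being Aurkb, Espl1 and Cdca8. Called were 0 of 41 in either direction, with 3.14% of all genes called lower and 3.51% higher. By at least 1.5-fold 10 of 41 were lower, against 11.0% of all genes. The largest differences were those of Kif11 (-0.78), Kif20b (-0.75), Cdca3 (-0.75), Kif23 (-0.73) and Tpx2 (-0.72). This comparison and the p53+/+ response subtract the same untreated p53+/+ library, so a high value there alone lowers both.

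Between the treated libraries the median was -0.09, against -0.02 over all genes, with 23 genes below 0 and 18 above. After quantile normalization it was -0.01, and the median of all genes was 0.10. Called lower in p53-/- cells were 3 of 41, Hmmr (-1.30), Cenpe (-1.23) and Spc25 (-1.16), and 0 were higher, with 13.0% of all genes called lower and 6.72% higher (34.0% of those called were higher, or 44.3% after quantile normalization). By at least 1.5-fold 8 were lower, against 23.4% of all genes. Tpx2 (-0.77), Cdc20 (-0.80), Bub1b (-0.74), Ube2c (-0.69) and Cenpa (-0.63) made up the 8.

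Cell type markers differed between the genotypes beside these results. Fibroblast markers were higher in p53-/- cells for 12 of 16 without and 13 of 16 with treatment. They summed to 267 and 190.1 FPKM in the p53+/+ libraries and to 808 and 731 FPKM in the p53-/- libraries, with Col3a1 and Postn at 0 in both p53+/+ libraries. Primitive endoderm markers, of which Pdgfra is also in the fibroblast list, were lower for 7 and 9 of 12 past the filter, with sums of 176 to 191 against 77.4 to 81.1 FPKM, and 2-cell-like markers for 4 and 5 of 5, with sums of 377 to 579 against 54.5 to 54.7 FPKM and Tcstv1 and Tcstv3 at 0 in every library. Trophoblast markers were higher for 3 of 5 past the filter in both, with sums of 35.1 to 42.2 against 69.0 to 73.9 FPKM. Cdx2, Elf5 and Gata3 did not pass it. The 3 were Krt8, Krt18 and Hand1 without treatment and Eomes, Krt18 and Hand1 with it. ES cell markers summed to 4524 and 3045 FPKM in p53+/+ and to 3244 and 2854 FPKM in p53-/- cells, the same order of libraries as the sums of the 41 genes. With treatment all 10 stood below 0 in p53+/+ cells, with a median of -0.83, and 2 were called lower. These were the pluripotency factors Nanog (310 and 105 FPKM, -1.55) and Zfp42 (289 and 84.7 FPKM, -1.76), which stood at 194 and 166 FPKM and at 307 and 164 FPKM in p53-/- cells. In p53-/- cells 8 of 10 stood below 0, with a median of -0.20, and 0 were called. The part of these markers in the results was not tested. Among the other lists, Col1a1 (fibroblast, 1.805) and Usp17la (2-cell-like, 1.01) were called higher and Eomes (trophoblast, -1.33) lower with treatment in p53+/+ cells, and 0 markers were called in p53-/- cells.

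Other genes of mitosis, taken from a list of 57 of which 56 were measured, had medians of -0.43 in p53+/+ and -0.18 in p53-/- cells. In p53+/+ cells 5 of 56 were called lower and 6 higher, against 2.78% and 11.4% of all genes. In p53-/- cells 1 was called lower and 0 higher, against 0.469% and 0.377% of all genes. Plk1, Polo-like kinase 1, was called lower in both, with 99.0 and 29.2 FPKM against 106 and 35.4 FPKM, and it resembled Aurka in that the genotypes moved alike (-1.73 and -1.56). The other 4 called lower in p53+/+ cells were Cks2, a Cdk1-binding subunit (52.6 to 18.4 FPKM), Racgap1, the centralspindlin partner of Kif23 (50.9 to 21.3 FPKM), the kinesin Kif18a (15.4 to 6.35 FPKM) and Pimreg (20.7 to 9.48 FPKM).

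The 6 of 56 called higher in p53+/+ cells are a share near the 11.4% of all genes, and none of the 41 genes was called higher. Kif18b, a kinesin of astral microtubules, rose from 27.4 to 80.1 FPKM there, with 19.5 and 13.0 FPKM in p53-/- cells. Ckap2, a microtubule-associated protein, rose from 35.9 to 100.2 FPKM against 24.1 and 21.2 FPKM. Psrc1 (61.1 to 159 FPKM), Gtse1 (76.9 to 169.7 FPKM), Cenpm (45.3 to 112 FPKM) and Cenpt (52.6 to 107 FPKM) were the others, of which Psrc1 and Gtse1 are known p53 targets. Kifc1, a minus-end kinesin, stood at 45.9 and 23.8 FPKM in p53-/- cells (-0.92) and at 68.0 and 124 FPKM in p53+/+ cells (0.86).

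Subunits of the anaphase-promoting complex itself did not share the pattern of its activators. Of 12 subunits 0 were called in either genotype, with medians of -0.01 and 0.00, and the largest difference was that of Cdc23 in p53+/+ cells (34.8 to 63.4 FPKM). Transcription regulators of G2/M genes had medians of -0.23 and 0.00 over 15 genes, and 1 was called in either response. This was Rbl2, which encodes p130 of the repressive DREAM complex, at 1.71 and 12.1 FPKM in p53+/+ cells (2.28) and at 1.24 and 1.61 FPKM in p53-/- cells. Mybl2, B-Myb of the activating complex, stood at 157 and 90.2 FPKM against 127 and 108 FPKM. Foxm1, an activator of late G2 genes, stood at 19.1 and 17.0 FPKM against 15.0 and 14.2 FPKM.

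G1/S and replication genes stood mostly on the other side of 0 in p53-/- cells. Their median there was 0.18, with 24 of 25 above 0, against 0.07 and 8389 of 13013 over all genes. In p53+/+ cells their median was -0.19, with 19 of 25 below 0, against 0.05 and 5979 of 13013 over all genes. Ccne1, cyclin E1, was the 1 gene called, falling from 145 to 49.3 FPKM with p53, against 106 and 133 FPKM without it. Cdc6, a replication licensing factor, had the highest p53-/- response of the list, at 10.9 and 17.6 FPKM.

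**Figure D4:**
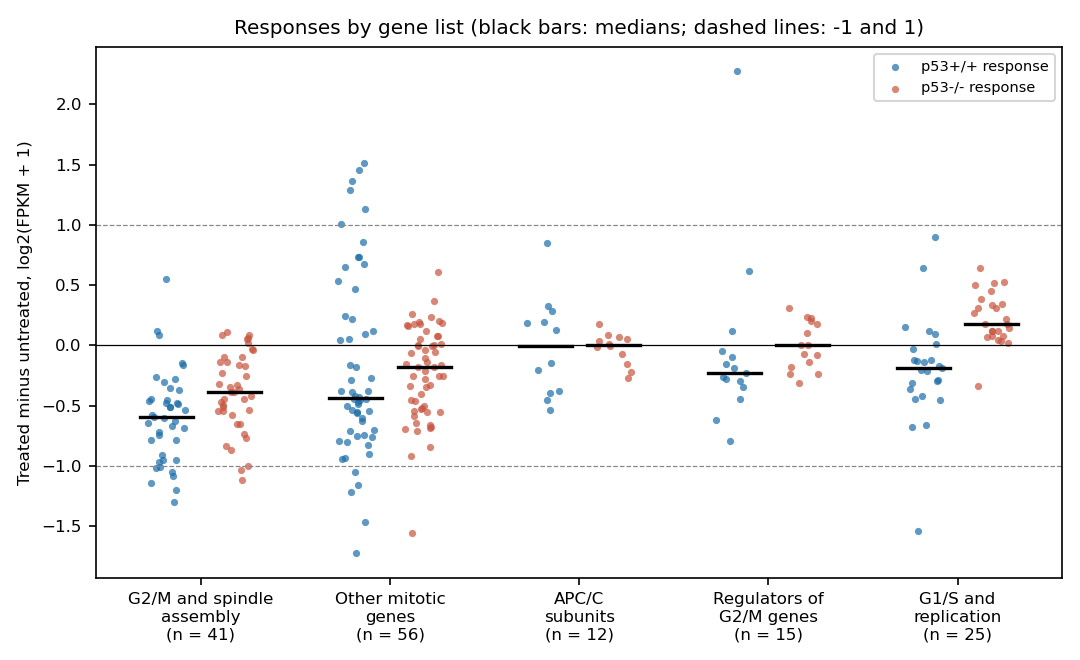
Responses to Adriamycin as differences of log2(FPKM + 1) for the 41 genes and for the 4 comparison lists, blue for p53+/+ and red for p53-/- cells, 1 point per gene with black bars at the medians. The 41 genes have medians of -0.60 and -0.38, the other mitotic genes spread to both sides in p53+/+ cells, and 24 of 25 G1/S and replication genes lie above 0 in p53-/- cells.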

How the data were processed

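Poly(A) RNA of 4 groups was sequenced with 1 library each. The deposited tables give FPKM per transcript with bounds and the read coverage (a signal per base), in a Cufflinks layout per the file headers. The authors named CASAVA 1.8.1, TopHat2 2.0.5, TopHat and Cufflinks with mm9, per the submitters' processing notes; the annotation was not given in the sources used here. Per the labels' protocols the kit was an exome enrichment kit, so capture could shift levels between genes. Of 30769 rows, 30388 were named from RefSeq (GRCm38.p6, names only) or GENCODE M21 and 381 were not. Short RNA genes (802 rows) were left out.

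FPKM was summed per gene. Differences used a pseudocount of 1 FPKM, a filter of 1 FPKM in at least 1 library, and a call at 1 on the log2 scale. No test was possible with 1 library per group. Positions in mm9 count from 1. The alternatives were other pseudocounts, filters, scalings and steps, the main transcript only, and only genes within their own bounds. The 41 genes and all lists were chosen with earlier results of these data known, so they are descriptions. Genes given in full follow a rule: the extremes of each comparison and of level, 22 in all; the rest were added to cover every gene. The tools were Python 3.11.15 with numpy 2.4.6, pandas 2.3.3, matplotlib 3.10.9 and scipy 1.17.1.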

Additional observations from a re-analysis of the deposited data

Results flagged for a closer look

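For 3 genes the sign of the response differed between the genotypes and the responses lay at least 1.5-fold apart. The share of all genes that meets both conditions was not counted. At the 1.5-fold step alone 13.8% of all genes had a lower and 19.9% a higher response difference. The p53+/+ response minus the p53-/- response was 0.75 for Cenpe, -0.69 for Mad2l1 and -0.61 for Ccna2. Cenpe had 0.09 in p53+/+ and -0.66 in p53-/- cells, and after quantile normalization its p53+/+ value was -0.04. Mad2l1 had -0.60 and 0.09, and Ccna2 had -0.60 and 0.02. The p53-/- value of Ccna2 is near 0, and its bounds in the untreated and treated p53-/- libraries overlap, so its sign there is not settled. The p53-/- bounds of Mad2l1 overlap too (25.2 to 29.9 and 26.8 to 31.4). Its treated p53-/- level lies above its own upper bound, so the sign of Mad2l1 there is not settled either. With 1 library per group these differences were not tested.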

How the results depend on the processing

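The median differences of the 41 genes kept their sign under every alternative run, with -0.51 to -0.61 for the p53+/+ response, -0.33 to -0.45 for the p53-/- response and -0.20 to -0.34 for the response difference. Counts of called genes moved more. With a pseudocount of 5 FPKM, 3 genes were lower in the p53+/+ response (Kif23, Ect2 and Aurka, without Prc1, Kif20b, Fzr1 and Cenpf), and 1 in the p53-/- response (Cdc20). Over the 24 genes within their own bounds, where fewer genes were counted, 3 were lower in the p53+/+ response (Ect2, Kif20b and Cenpf). In the p53-/- response 2 of these 24 were lower (Cdc20 and Hmmr). Aurka is not among the 24, so no gene was called in both genotypes under that setting. With main transcripts alone 1 gene, Ect2, had a response difference of -1 or less, and 4 genes were lower in the p53-/- response, Tpx2 being added. At the 1.5-fold step the counts were 21 and 9 lower in the p53+/+ and p53-/- responses, 8 lower and 3 higher for the response difference, and 10 and 8 lower between untreated and treated genotypes. Quantile normalization moved the p53+/+ median of all genes from 0.05 to -0.10, and the genes called higher from 80.4% to 65.3% of those called, while the 41 genes stood 0.65 and 0.46 below that median. It also put Fzr1 (-0.89) short of the call. Cenpe between treated genotypes was -0.86 with a pseudocount of 5 FPKM. Removing the filter, or raising it to 5 FPKM, changed no value of the 41 genes. No replicate could be left out, and no paired analysis was possible because each group has 1 library.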
